A study of Sus scrofa with 48 samples.

Results

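The anti-inflammatory cytokine interleukin-10 and the proteins that carry its signal were measured in the perirenal fat of pigs, the depot that surrounds the kidney, as 5 genes: IL10, its receptor chains IL10RA and IL10RB, the transcription factor STAT3 and the feedback inhibitor SOCS3. Members were the array probes whose gene name in the scanner files is one of these symbols, 14 of 60305 probes, with 3 for IL10, 1 for IL10RA, 2 for IL10RB, 5 for STAT3 and 3 for SOCS3. All 14 were among the 38142 probes that the authors kept after quality filtration.

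The study asked how diet and selection for feed efficiency act on the gene expression of this fat. The 48 Large White barrows, sampled at 132 days of age, came from lines selected for low or high residual feed intake (RFI, the gap between actual and predicted intake, so that a low value means better efficiency). Within each line, 12 pigs had free access to a diet rich in fat and fibre (HF) and 12 to a diet poor in both and rich in starch (LF). The groups are thus low RFI on HF (HF_RFIneg), high RFI on HF (HF_RFIpl), low RFI on LF (LF_RFIneg) and high RFI on LF (LF_RFIpl), with 1 array and 1 RNA sample per pig. Fat, fibre and starch differ together between the diets, so that their parts cannot be told apart. The study reports that pigs on HF also ate less, weighed less at the end and had relatively less perirenal fat. These differences go with diet and were not separated from it here. The pigs of a line share ancestry.

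Interleukin-10 is secreted by macrophages and lymphocytes and limits inflammatory cytokine production. It binds IL10RA, the chain that gives specificity and is mostly made by blood-derived cells, and then recruits IL10RB, a chain that is widely expressed and shared with related cytokines. The paired chains activate the kinases JAK1 and TYK2, which phosphorylate STAT3. STAT3 then enters the nucleus and raises target genes, SOCS3 among them, and SOCS3 protein restrains the receptors of several other cytokines. Fat tissue holds resident macrophages beside its adipocytes, and STAT3 there also answers to leptin and IL6.

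The probes that carried the results are printed 5′ to 3′ as the scanner files give them. The first set shows, for IL10, SOCS3 and IL10RA, bases 1 to 30 of each probe of 60 bases, because the probes of these genes did not all give the same result.
IL10 A_72_P185331: ctagaagcaattcaattcctctgggaatgt
IL10 O12249: gctgtggccagcttgttatttaaaacaacc
SOCS3 A_72_P367438: gttaggagatgcttgaaaaactcaacgaaa
SOCS3 A_72_P185956: tctcctccaacgtggccactctccagcatc
IL10RA O10569: agactgcctgggttcctgaaatatgctgcc
IL10RA A_72_P150251: ccttgggaaaagcacttttcctcatctctt
The second set shows whole STAT3 and IL10RB probes, because the line difference changed sign between STAT3 probes and its size changed between IL10RB probes. Capitals mark a base at which a pair of overlapping STAT3 probes differ.
STAT3 A_72_P561986: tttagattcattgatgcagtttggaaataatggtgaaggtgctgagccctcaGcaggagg
STAT3 A_72_P669204: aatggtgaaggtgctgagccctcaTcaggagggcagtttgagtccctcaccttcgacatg
STAT3 A_72_P349223: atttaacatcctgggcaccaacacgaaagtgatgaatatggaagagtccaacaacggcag
STAT3 A_72_P232807: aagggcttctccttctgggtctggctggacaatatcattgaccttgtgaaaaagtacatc
IL10RB A_72_P441858: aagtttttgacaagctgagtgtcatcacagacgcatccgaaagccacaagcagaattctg
IL10RB A_72_P692777: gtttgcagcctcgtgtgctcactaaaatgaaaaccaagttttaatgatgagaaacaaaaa
The last 32 bases of A_72_P561986 are the first 32 of A_72_P669204 apart from G53T, with positions counted from 1 at the 5′ end of A_72_P561986. The files list human transcripts for the 4 probes whose names begin with O, and they give no genome position for any of the 14.

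Besides the 14, 5 spots were examined that the files do not name by these symbols. For 4 of them the spot name holds an accession of IL10, IL10RB, STAT3 or SOCS3. The IL10 spot has exactly the sequence of A_72_P185331, so that it measured the same target again on the same array. The IL10RB and STAT3 spots are A_72_P441858 and A_72_P561986 moved by 3 bases, and the SOCS3 spot was not kept by the authors. The remaining spot, A_72_P150251, is named in the files by a clone and is IL10RA in the list of the study, which points to IL10 and IL10RA on the basis of these same pigs. Its values are therefore not independent evidence for that gene.

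Each value is log2 of a spot's median Cy3 signal minus the median of log2 signal over all 60305 probes of its array, so that 0 is the signal of a typical probe. The array medians of signal lay between 115 and 178, with a median of 150 for HF and 139 for LF, against a local background of 23 to 33. Between 38875 and 47813 probes per array were well above background, and no kept spot was saturated. The arrays fill 6 slides of 8, each with 2 pigs of every group, and slides 1 to 3 and 4 to 6 were scanned on different days. The number of arrays limits the precision. Adipocyte markers gave high signals (FABP4 10.80, ADIPOQ 10.18 and LIPE 9.91 as mean log2 values), whereas the adrenal markers STAR, HSD3B1 and CYP11A1 had means of 1.76, 0.49 and -0.18.

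A probe was called when its raw p was under 0.01, its fold above 1.1 and its Benjamini-Hochberg (BH) adjusted p over all 38142 probes under 0.08, in a limma fit of diet, line and their interaction. For diet, 3 of the 14 probes were called, 2 of IL10 and 1 of SOCS3, all higher in HF. The background was 24.5% of all probes called for diet, and 8.96% called higher in HF. The median diet difference was 0.07 log2 over the 14 probes and -0.02 over all probes, and 13 of the 14 lay above 0. For line, 2 of the 14 were called, both of STAT3 and with opposite signs, against a background of 3.58% (1.81% higher and 1.77% lower in low RFI). No interaction reached a raw p under 0.01 (lowest p = 0.256 in limma), against 0.291% of all probes.

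**Figure D1:**
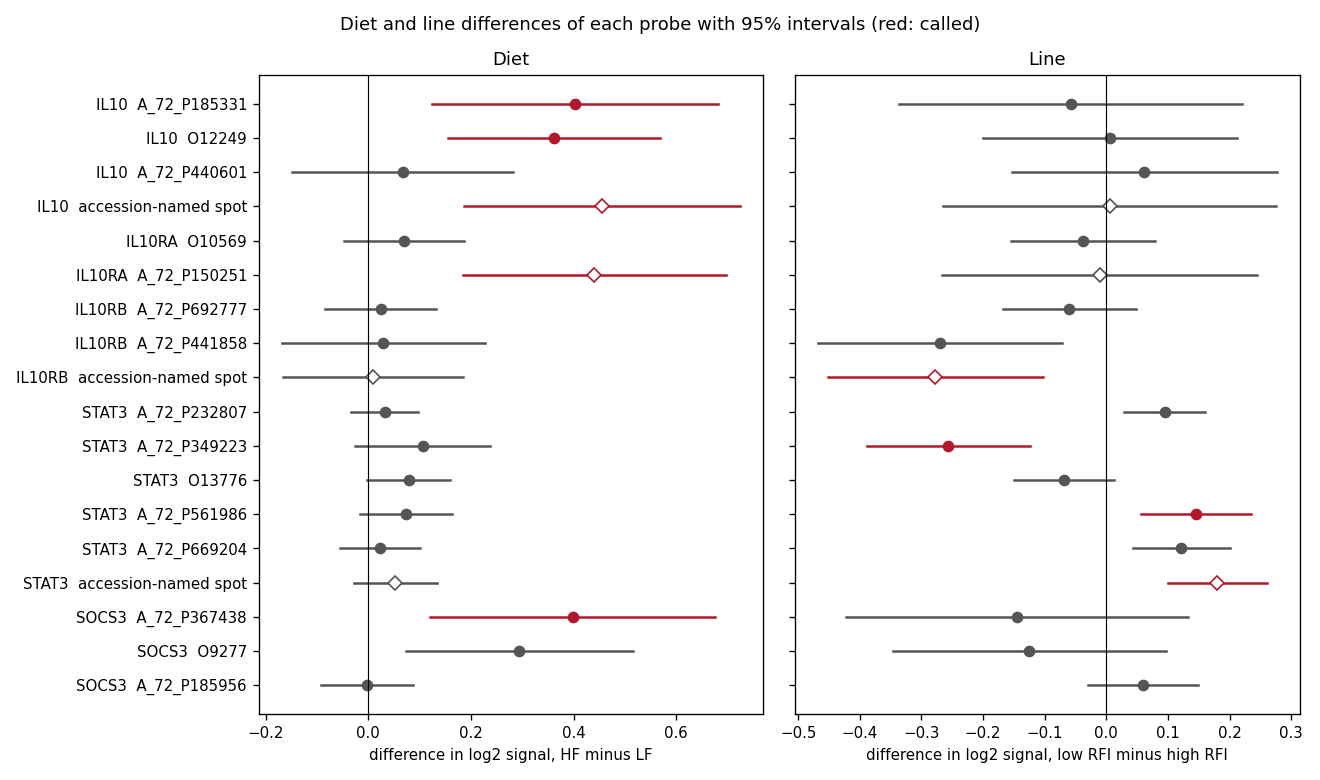
Difference in log2 signal for each kept probe, HF minus LF on the left and low RFI minus high RFI on the right, with 95% confidence intervals from limma (48 pigs). Filled circles are probes named by symbol, open diamonds the other spots, and red marks the called probes. The IL10 and SOCS3 intervals lie to the right of 0 on the diet side, except at their dimmest probes, whereas the STAT3 probes fall on both sides of 0 for line.

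IL10 itself, the ligand, was higher in pigs fed HF. At A_72_P185331, its brightest probe, the lowest, median and highest values were -0.71, 0.39 and 1.15 in HF_RFIneg and -0.57, 0.18 and 1.096 in HF_RFIpl. They were -0.71, -0.33 and 0.99 in LF_RFIneg and -0.49, -0.11 and 0.25 in LF_RFIpl. The groups overlapped over most of their range. Over all 24 pigs of a diet the median was 0.37 in HF and -0.20 in LF. Of these pigs, 2 on HF lay above every LF pig and 1 on LF lay below every HF pig.

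The mean over 24 pigs was 0.27 ± 0.55 (SD) in HF and -0.14 ± 0.41 in LF, a difference of 0.40 ± 0.14 (SE) log2 or 1.32-fold (limma, raw p = 0.00544, BH adjusted p = 0.0229). Without HF_RFIneg replicate 6 or HF_RFIpl replicate 1 the probe was no longer called, at a difference of 0.36 or above and a raw p of 0.0104 or below in every fit that left out 1 pig. More cells that make IL10 and more IL10 RNA per cell cannot be told apart in such bulk tissue.

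The second IL10 probe, O12249, gave a difference of 0.36 ± 0.10 (SE) log2, or 1.28-fold (BH adjusted p = 0.00637, limma). Its values ran from -0.93 to 0.18 in HF and from -1.17 to 0.30 in LF, and 7 LF pigs lay below every HF pig. It stayed called in all 48 fits that left out 1 pig. The spot with the sequence of A_72_P185331 gave 0.46 ± 0.13 log2 (BH adjusted p = 0.0083, limma). Values of these identical spots differed by 0.02 ± 0.14 (SD) over the 48 arrays, a spread that is small beside the 0.52 between pigs.

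The third IL10 probe, A_72_P440601, was dim, with a mean of -1.19, and was well above background on 32 of 48 arrays. Its diet difference was 0.07 (95% interval -0.15 to 0.28) and was not called, although it moved with A_72_P185331 over the pigs with group means taken off (r = 0.59, rho = 0.73, permutation p = 0.00018 and 1e-05, the latter being the smallest that the permutations can give, n = 48). Its highest value, 0.32, was that of LF_RFIneg replicate 1. Under other scalings the difference of O12249 ran from 0.27, with normexp background correction and quantile normalization, to 0.64. The latter came from another signal and scaling together, the background-subtracted processed signal centred on its 75th percentile. For A_72_P185331 these settings gave 0.33 and 0.56.

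Within the lines, the diet difference of A_72_P185331 was 0.42 among low RFI pigs and 0.39 among high RFI pigs (interaction p = 0.911, limma). At O12249 it was 0.31 and 0.42 (interaction p = 0.592, limma). In the low RFI line on LF, replicates 6 and 11 stood above every other LF pig, with 0.84 and 0.99 at A_72_P185331 where the highest LF_RFIpl pig had 0.25. On each scan day alone the difference was 0.38 and 0.43. The line difference of IL10 was -0.06 (95% interval -0.34 to 0.22) at A_72_P185331.

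**Figure D2:**
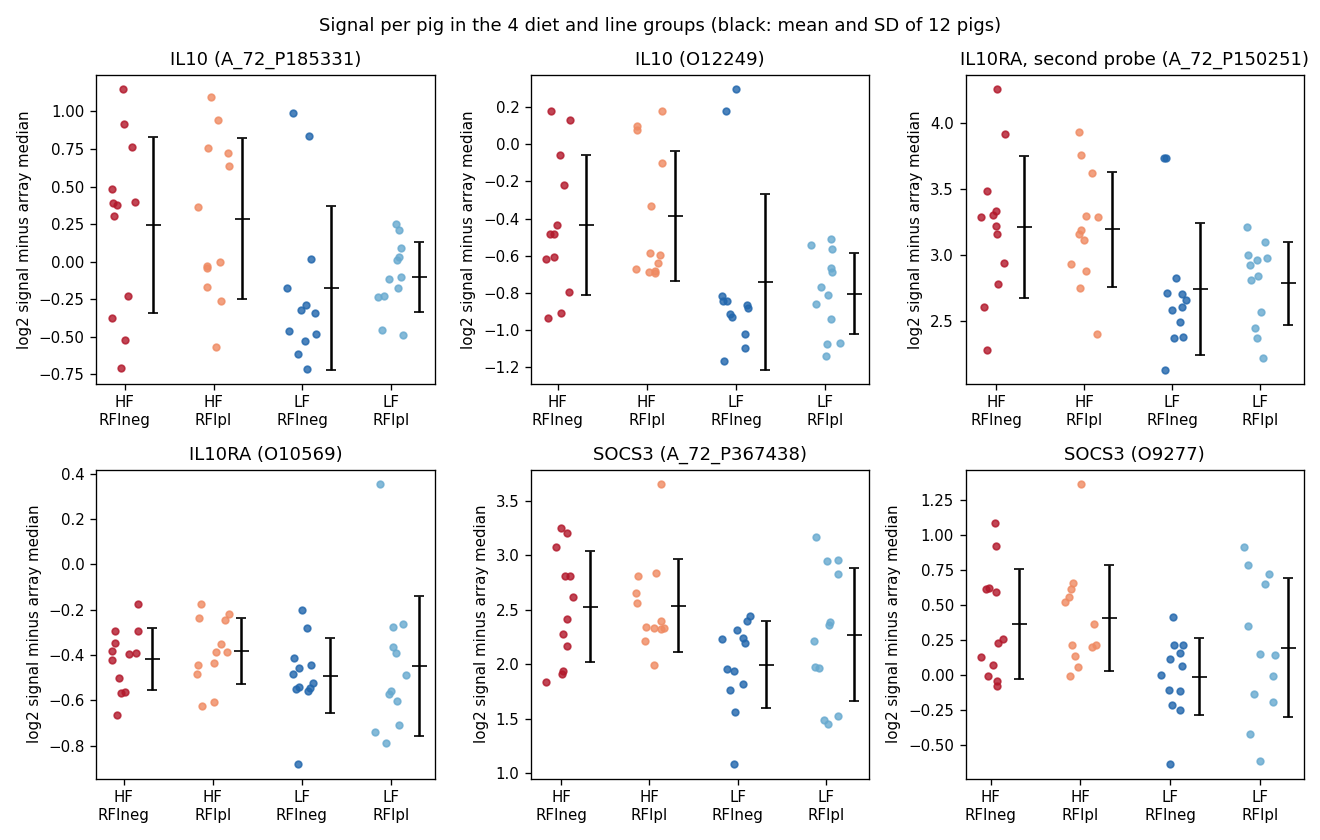
Log2 signal minus array median of each pig for IL10, IL10RA and SOCS3 probes in the 4 groups, 12 pigs each, with the mean and SD in black. Most HF pigs lie above the LF mean for IL10, SOCS3 and the second IL10RA probe, the LF_RFIneg group has 2 pigs with high IL10, and the groups overlap in every panel.

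IL10RA, the ligand-binding chain, gave results that differed between its probes. The probe named IL10RA in the files, O10569, was close to its own mean of -0.44 in all groups, with medians of -0.39 and -0.39 on HF and -0.50 and -0.52 on LF. The diet difference was 0.07 (95% interval -0.05 to 0.19, BH adjusted p = 0.368, limma) and was not called. LF_RFIpl replicate 2 had the highest value, 0.36.

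At A_72_P150251, the probe that the study names IL10RA, the lowest, median and highest values were 2.28, 3.25 and 4.26 in HF_RFIneg and 2.40, 3.17 and 3.94 in HF_RFIpl. They were 2.13, 2.63 and 3.74 in LF_RFIneg and 2.21, 2.88 and 3.21 in LF_RFIpl. The difference of 0.44 ± 0.13 (SE) log2, or 1.36-fold, was called (BH adjusted p = 0.00725, limma), and 20 of the 24 pigs on HF exceeded the LF mean against 11 of the 24 on LF. It was 0.48 on scan day 1 and 0.41 on scan day 2. Over the pigs, with group means taken off, the IL10RA probes were weakly related (r = 0.24, rho = 0.21, permutation p = 0.0664 and 0.162, n = 48).

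IL10RB, the shared chain, did not differ detectably between diets at either probe. The diet differences were 0.02 (95% interval -0.08 to 0.13) at A_72_P692777 and 0.03 (-0.17 to 0.23) at A_72_P441858. For line, A_72_P441858 was lower in low RFI pigs by 0.27 log2, with a mean of 1.23 ± 0.41 (SD) against 1.496 ± 0.27, but it was not called (raw p = 0.00845, BH adjusted p = 0.153, limma). The spot moved by 3 bases gave -0.28 and was called (BH adjusted p = 0.0729, limma). At A_72_P692777 the line difference was -0.06 (-0.17 to 0.05).

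The line difference of A_72_P441858 was -0.51 among the pigs scanned on day 1 and -0.03 among those scanned on day 2, and the difference between days was not tested. It was called on day 1 (BH adjusted p = 0.0613, limma) and not on day 2. At this probe 9 pigs had 0.90 or less, 8 of them low RFI. Its values nonetheless followed those of A_72_P692777 over the pigs (r = 0.77, rho = 0.78, both permutation p = 1e-05).

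STAT3, the transcription factor downstream of the receptor, was not called for diet at any of its 5 probes, with differences between 0.02 and 0.11 log2, although 4 of them were called higher in HF when the arrays were centred on spike-in probes. The line differences went both ways. At A_72_P349223 the lowest, median and highest values were 0.01, 0.58 and 0.87 in the 24 low RFI pigs and 0.19, 0.72 and 1.13 in the 24 high RFI pigs. The difference, low minus high RFI, was -0.26 ± 0.07 (SE) log2 (BH adjusted p = 0.0169, limma), and it was called in all 48 fits that left out 1 pig. With the pigs of 1 scan day it was -0.19 and not called on day 1 (raw p = 0.0683, limma), and -0.32 and called on day 2. At this probe 10 pigs had 0.28 or less and the next had 0.39, and 9 of these 10 were low RFI.

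At A_72_P561986 the order was reversed. Low RFI pigs had 0.30, 0.59 and 0.87 as lowest, median and highest values, and high RFI pigs 0.20, 0.41 and 0.77. The difference was 0.15 ± 0.04 (SE) log2 (BH adjusted p = 0.0618, limma), and 32 of the 48 fits that left out 1 pig called it. The spot moved by 3 bases gave 0.18 ± 0.04 (BH adjusted p = 0.00452, limma).

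The overlapping probe A_72_P669204, which carries the other base, had 0.12 (BH adjusted p = 0.0828, limma) and missed the threshold. A_72_P232807, the brightest probe, had 0.09 (BH adjusted p = 0.12, limma), with 20 of 24 low RFI pigs above the high RFI mean. O13776 had -0.07 (95% interval -0.15 to 0.01) and was not called. Relations between the probes over the pigs, with group means taken off, followed the direction of the line difference only in part. The r was 0.73 for A_72_P349223 with O13776 (rho = 0.71, both permutation p = 1e-05), and 0.62 for A_72_P561986 with A_72_P669204 (rho = 0.68, both permutation p = 1e-05). For A_72_P349223 with A_72_P232807 it was 0.02 (rho = 0.06, permutation p = 0.914 and 0.697). With A_72_P561986 and A_72_P669204, A_72_P349223 had r of -0.14 and 0.09 (permutation p = 0.35 and 0.56). A_72_P232807 had r of 0.42 with A_72_P561986 and 0.46 with A_72_P669204 (permutation p = 0.00357 and 0.0012). Yet O13776, which lies below 0 for line, was related to A_72_P232807 (r = 0.40, rho = 0.44, permutation p = 0.00798 and 0.003) and to A_72_P669204 (r = 0.39, rho = 0.35, permutation p = 0.0112 and 0.0219), which lie above 0. With A_72_P561986, O13776 had r = 0.18 (permutation p = 0.223). The mean of the 5 probes differed by 0.01 between lines. A direction for STAT3 as a gene is therefore not given.

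**Figure D3:**
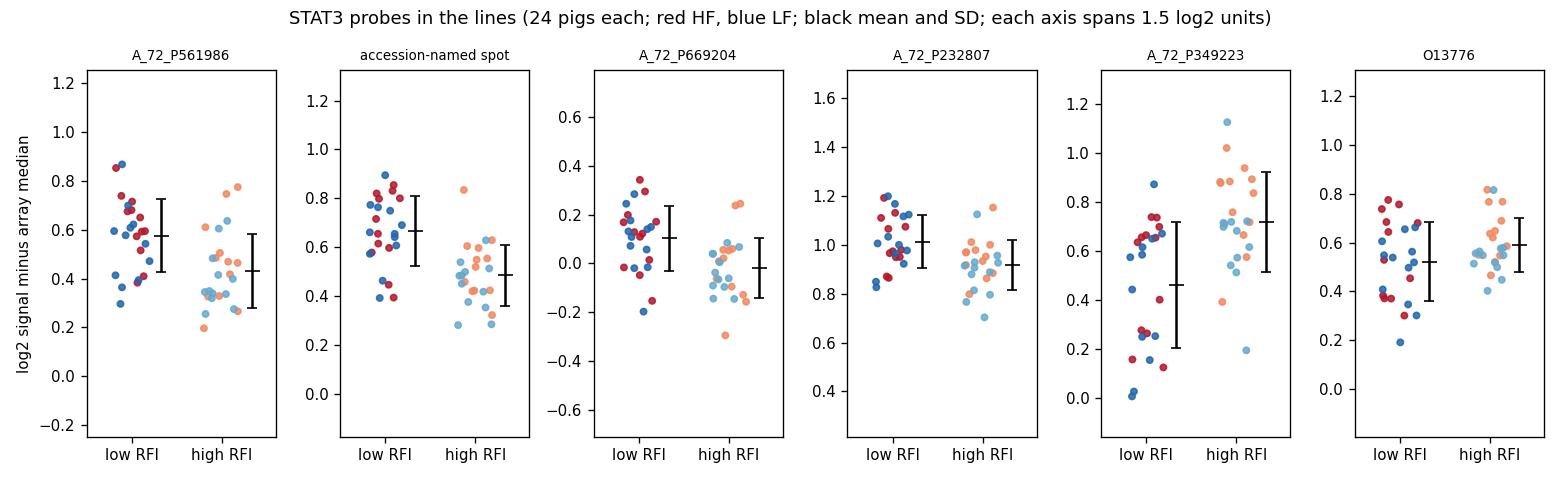
Log2 signal minus array median of each pig in the low and high RFI lines at the 5 STAT3 probes and at the spot moved by 3 bases from A_72_P561986, with the mean and SD of 24 pigs in black. A_72_P349223 is lower in low RFI, with a lower set of 9 low RFI pigs and 1 high RFI pig, whereas A_72_P561986 and its neighbours are higher.

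SOCS3, the feedback inhibitor that STAT3 induces, was higher in HF. At A_72_P367438, its brightest probe, the lowest, median and highest values were 1.84, 2.52 and 3.25 in HF_RFIneg and 1.998, 2.37 and 3.66 in HF_RFIpl. They were 1.08, 2.08 and 2.45 in LF_RFIneg and 1.45, 2.29 and 3.17 in LF_RFIpl. The diets overlapped, but 7 LF pigs lay below every HF pig and 3 HF pigs above every LF pig.

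The difference was 0.40 ± 0.14 (SE) log2, or 1.32-fold (raw p = 0.0058, BH adjusted p = 0.0241, limma). It was 0.53 within low RFI and 0.27 within high RFI pigs (interaction p = 0.343, limma), and 0.49 and 0.30 on the scan days. The call was lost in 7 of the 48 fits that left out 1 pig (HF_RFIneg replicates 7 and 10, HF_RFIpl replicate 1, LF_RFIneg replicate 2 and LF_RFIpl replicates 1, 2 and 4), where the raw p rose to 0.0113 at most.

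O9277 gave 0.29 ± 0.11 (SE) log2 and a raw p of 0.0102 (BH adjusted p = 0.037, limma), just past the threshold, although it followed A_72_P367438 closely over the pigs (r = 0.96, rho = 0.96, both permutation p = 1e-05). The dim probe A_72_P185956, with a mean of -1.21 and 45 of 48 arrays well above background, gave a difference that rounds to 0.00 (95% interval -0.09 to 0.09). It did not follow A_72_P367438 (r = 0.19, rho = 0.21, permutation p = 0.197 and 0.168). The line difference of A_72_P367438 was -0.14 (95% interval -0.42 to 0.13).

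Pig to pig, 1 of the 10 pairs among the brightest probes of the 5 genes was related after group means were taken off. This pair was IL10 with SOCS3 (r = 0.47, permutation p = 0.00038, BH adjusted 0.0038; rho = 0.44, permutation p = 0.00204, BH adjusted 0.0204; n = 48). Without the 2 pigs farthest from the IL10 median r was 0.49, and on the scan days it was 0.52 and 0.49. It was 0.69 among HF and 0.22 among LF pigs, and the difference between diets was not tested. IL10 with IL10RA at O10569 had r = 0.24 (rho = 0.23, permutation p = 0.0513 and 0.104, BH adjusted 0.256 and 0.346). STAT3 at A_72_P232807 was not related to IL10 (r = -0.21, rho = -0.21, permutation p = 0.166 and 0.171) or to SOCS3 (r = -0.10, rho = -0.08, permutation p = 0.529 and 0.591). The other STAT3 probes were not compared with IL10 or SOCS3.

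The probe that the study names IL10RA ran with IL10 (r = 0.90, rho = 0.88, both permutation p = 1e-05, BH adjusted 4e-05 over 4 pairs). This r was 0.91 on scan day 1 and 0.90 on scan day 2, and 0.88 without the 2 pigs farthest from the median of A_72_P150251. The study places IL10 and IL10RA in a module of genes that vary together in these same pigs. The relation is therefore not an independent test of a link between them.

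Among 8551 other genes, the 5 whose values ran most like IL10 over the 48 pigs, by Pearson's r with group means taken off, were PIK3CG (0.93), ARRB2 (0.92), CD53 (0.92), VAV1 (0.91) and BLNK (0.90). These genes are known from leukocytes, ARRB2 being also more broadly expressed. For A_72_P150251 they were PIK3CG (0.94), CD53 (0.91), VAV1 (0.91), NCKAP1L (0.91) and BLNK (0.91), so that 4 genes stood in both lists. Of these 6 genes, PIK3CG, ARRB2, CD53, VAV1 and NCKAP1L were called higher in HF, by 0.38 to 0.52 log2, and BLNK was not called at 0.37. The study ranks ARRB2, CD53, VAV1 and NCKAP1L beside IL10 in its module, which was built from probes that differed between diets in these pigs. Neither their likeness to IL10 nor their calls are therefore independent results.

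The other members had no such company. SOCS3 was nearest to SERTAD3 (0.75) and NFATC1 (0.71), followed by RAB31 (0.63), ADM (0.62) and ASXL1 (0.61). STAT3 was nearest to ERC1 (0.65), UBAP2L (0.61), NOR-1 (0.57), RCOR1 (0.56) and CORO1C (0.56). IL10RB was nearest to DDB2 (0.63), FTCD (0.60), PPIH (0.58), NUBPL (0.58) and PPM1F (0.57). IL10RA at O10569 was nearest to RCAN3 (0.59), CA6 (0.56), SLC38A10 (0.56), ZNF710 (0.52) and FREM1 (0.51).

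Markers of macrophages moved with IL10. Of 17 listed markers 14 were measured, and 9 of them were called higher in HF and none lower, with a median difference of 0.45 log2 against -0.05 over 8552 genes, of which 6.19% were called higher. C1QB and C1QA, subunits of complement C1q, and AIF1, a calcium-binding protein of macrophages, had differences of 0.76 ± 0.24, 0.80 ± 0.25 and 0.36 ± 0.12 (SE) log2. Their signals summed over the 14 markers, in multiples of the array median, ranged from 70.0 to 467 in HF_RFIneg, 89.0 to 458 in HF_RFIpl, 63.0 to 374 in LF_RFIneg and 87.7 to 197 in LF_RFIpl. The defining marker CD68 had a mean of -1.16 at the probe used and was well above background on 42 of 48 arrays. Its diet difference was 0.09 ± 0.05 (SE) log2, the smallest of the 14, and was not called (BH adjusted p = 0.215, limma).

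IL10 at A_72_P185331 ran with the mean of the 14 markers over the pigs (r = 0.90, rho = 0.86, both permutation p = 1e-05, BH adjusted 6e-05 over 18 pairs), with r = 0.89 and 0.92 on the scan days and 0.88 without the 2 pigs farthest from the IL10 median. The r was 0.91 for A_72_P150251 (rho = 0.87, both permutation p = 1e-05), 0.46 for SOCS3 (rho = 0.45, permutation p = 0.00061 and 0.00129) and 0.19 for O10569 (rho = 0.13, permutation p = 0.129 and 0.384). The 2 LF_RFIneg pigs with high IL10, replicates 6 and 11, had macrophage means of 3.34 and 3.42 where the median of their group was 2.03. The part of macrophage markers in the diet difference of IL10 was not tested. C1QA and C1QB also stand beside IL10 among the most connected genes of the study's module, found in these same pigs. The marker calls and the relation of the marker mean to IL10 are therefore not independent tests.

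IL10 ran opposite to the mean of 9 adipocyte markers (r = -0.66, rho = -0.61, both permutation p = 1e-05), of which LEP, CIDEA and CIDEC were called lower in HF, 3 of 9 where 19.2% of all genes were. Of 7 T cell markers, which include genes of cells that also make IL10, CD3G was called, 0.34 log2 higher in HF, and the relation of IL10 to their mean did not pass the test over the 48 pigs (r = 0.28, rho = 0.16, permutation p = 0.0738 and 0.284). That r was 0.59 among LF and -0.01 among HF pigs, and 0.05 and 0.45 on the scan days, and these differences were not tested. No B cell marker was called among the 3 measured, and the B cell markers MS4A1 and CD79B, with means of -1.24 and -0.97, were well above background on 36 and 47 of 48 arrays. Of 7 endothelial markers CLDN5 was called, 0.30 log2 higher in HF. Over all genes 6.19% were called higher in HF and 25.4% in either direction, so that counts in marker lists this short show little. None was called of 3 NK cell, 7 neutrophil and mast cell, 8 fibroblast, 2 erythrocyte, 4 kidney and adrenal or 3 mesothelial markers. All 8 fibroblast markers nonetheless lay above 0, with a median of 0.25 log2 against -0.05 over all genes. The neutrophil and mast cell median was 0.20, with 4 of 7 above 0. The NK cell, erythrocyte, kidney and adrenal, and mesothelial medians were 0.01, 0.03, 0.04 and -0.04.

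**Figure D4:**
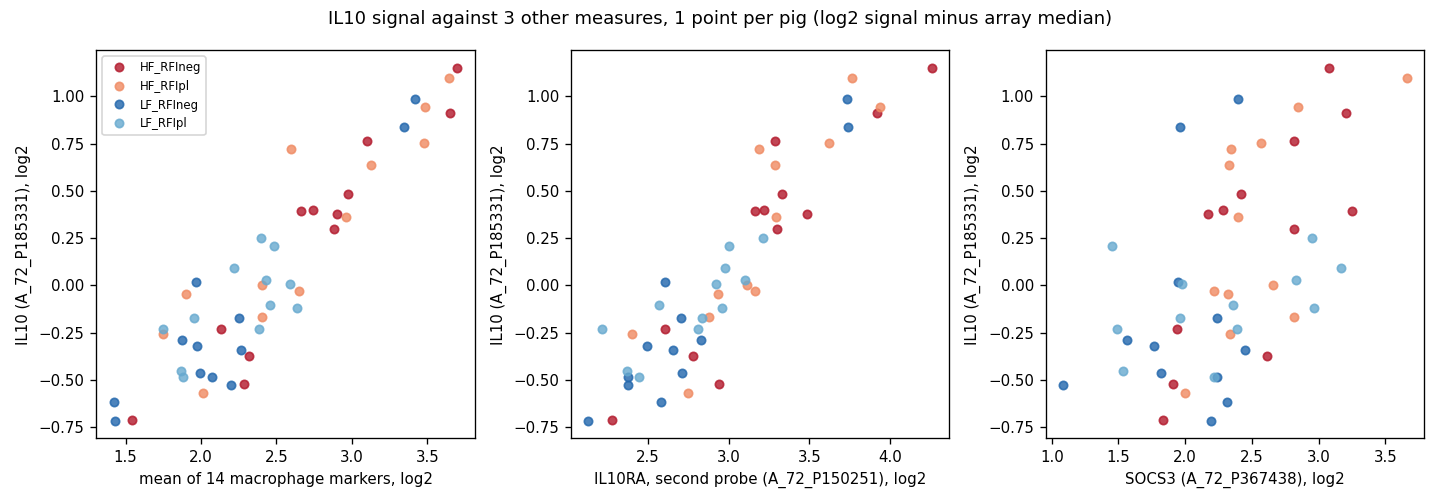
IL10 at A_72_P185331 against the mean of 14 macrophage markers, the second IL10RA probe and SOCS3, 1 point per pig, all as log2 signal minus array median, with groups by colour. With group means taken off, r was 0.90, 0.90 and 0.47 from left to right.

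The other genes of the pathway went both ways with diet. Of 18 partners and regulators of IL10 signalling 15 were measured, with 2 called higher and 3 called lower in HF and a median of 0.03 log2, where 25.4% of the 8552 genes were called. SOCS2, a feedback inhibitor of growth hormone signalling, and PTPN6, a phosphatase of blood cells, were higher by 0.38 ± 0.07 and 0.36 ± 0.10 (SE) log2. CISH, another inhibitor of the SOCS family, and NFIL3, a transcription factor that IL10 induces, had differences of -0.33 ± 0.09 and -0.34 ± 0.11. PTPN11, a phosphatase named after its value was seen, had -0.19. The kinases JAK1 and TYK2 were not called, at -0.03 and 0.10. For line, 1 of the 15 was called, where 3.23% of all genes were called for line and 1.81% higher in low RFI. This was STAT5A, 0.20 log2 higher in low RFI (BH adjusted p = 0.0659, limma). STAT5B, next in order, had 0.10 and was not called.

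Genes that IL10 is known to raise in macrophages were called higher in 4 and lower in 2 of 12 measured of 20 listed, with a median of 0.09 log2, where 6.19% of all genes were called higher and 19.2% lower. IL1RN, the decoy ligand of the IL1 receptor, and TNFRSF1B, a TNF receptor, were higher by 0.22 ± 0.045 and 0.19 ± 0.06 (SE) log2. The others called higher were SOCS3 and the scavenger receptor CD163 (0.70). SOCS3 is counted here at the member probe described above, and CD163 is also in the macrophage marker list, so neither adds a separate result. GADD45G, a stress-response gene, and NFIL3 were lower in HF, with -0.38 ± 0.12 and -0.34 ± 0.11. BCL3, a nuclear IκB protein, had a line difference of -0.12 and was not called.

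Of 20 genes that IL10 is known to lower, 16 were measured, and 3 were called, all higher in HF, with a median of 0.13 log2, against 6.19% higher and 25.4% in either direction over all genes. These were PTGS2, the inducible enzyme of prostaglandin synthesis (0.65 ± 0.13), IL6 (0.44 ± 0.12) and IL1A (0.20 ± 0.07). All were dimmer than a typical probe, with means of -0.38, -0.42 and -0.96, and IL1A was well above background on 45 of 48 arrays. IL1B had 0.44 ± 0.19 (BH adjusted p = 0.0652, limma) and was not called because its raw p was above 0.01. CD40, a co-stimulatory receptor, was not called for diet at 0.00, but was lower in low RFI with -0.47 log2 (BH adjusted p = 0.0199, limma). It was the 1 gene of the 16 called for line, where 3.23% of all genes were called and 1.41% were lower in low RFI. NOS2 had a line difference of -0.18 and was not called.

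Of 19 genes of other routes to STAT3, 8 were measured and 4 were called for diet, 2 in each direction, with a median of 0.07 log2, against 25.4% of all genes. LEP, the leptin that adipocytes secrete, had -0.94 ± 0.15 (SE) log2 (BH adjusted p = 5.31e-06, limma), and IL6ST, the shared chain of the IL6 receptors, had -0.16 ± 0.06. EGFR (0.28 ± 0.08) and IL6 were higher. JAK2 had line and diet differences of 0.10 and 0.07, neither of them called.

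Of 20 known STAT3 target genes, 14 were measured, with 4 called higher and 1 lower in HF and a median of -0.02 log2, against 6.19% and 19.2% of all genes. FOS and MYC, immediate-early transcription factors, were higher by 0.89 ± 0.26 and 0.27 ± 0.09 (SE) log2, beside the kinase PIM1 (0.25) and SOCS3, again at the member probe itself. HIF1A, the oxygen-sensing factor, was lower with -0.14 ± 0.05. The remaining 9 were not called. For the related cytokines and chains that share IL10RB (IL19, IL20, IL22 and kin), none of the 12 listed had a probe kept by the authors under these names.

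**Figure D5:**
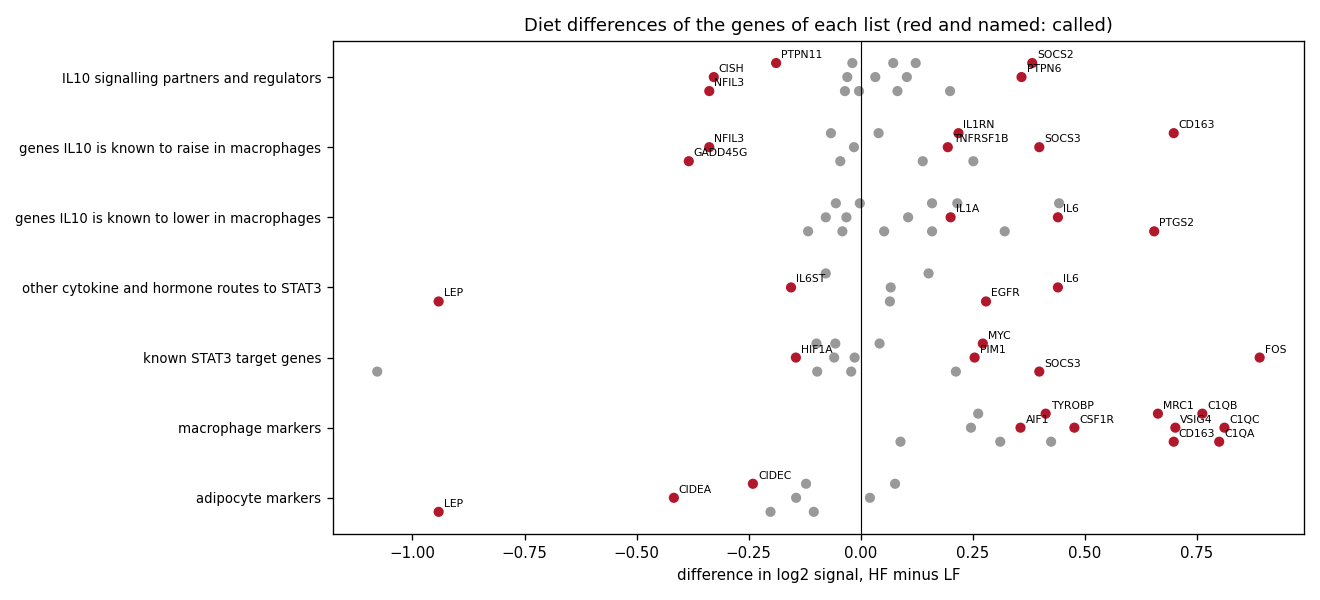
Diet difference in log2 signal (HF minus LF) at the brightest probe of each measured gene, by list, with called genes in red and named. Called genes lie on both sides of 0 for the pathway lists, except that the 3 called genes known to be lowered by IL10 are all higher in HF, as are the 9 called macrophage markers, whereas the 3 called adipocyte markers are lower.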

How the data were processed

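The authors hybridized Cy3-labelled RNA, 1 sample per pig, to 1-colour porcine arrays. The spot intensity values were made by the authors with Feature Extraction 10.7.3.1 and deposited without normalization between arrays. The log2 values that the authors deposited, made with R 2.10.0, are log2 of the median intensity after quality filtration, centred on each array's median over the kept probes. Each of its 38142 rows was matched to 1 spot by its values in the 48 arrays (largest difference 5e-09), because only 2 row names are those of the matched spot. Names were taken from the scanner files. Genome builds and coordinates are not given in the sources used here.

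The log2 median intensity was centred on the median over all probes, and the kept probes were fitted (lmFit and eBayes of limma 3.58.1, under R 4.3.3) with diet, line and interaction, over all 4 groups. The study's thresholds set the calls, and its two-way ANOVA was an alternative. The fit was tested on simulated data. Correlations used values with group means taken off and 100000 two-sided permutations within groups. BH adjustment was over 10 pairs of members, 28 pairs of probes of 1 gene, 4 pairs of the second IL10RA probe or 18 pairs with marker means. The probe of highest mean stood for a gene in lists and likeness searches over the 8552 genes whose file name is a symbol in the reference tables (RefSeq, Sscrofa11.1, for names only).

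Every member probe was named, with the 4 genes of smallest diet p and the 2 of smallest line p of each pathway list, the 3 brightest genes of the marker lists used here and the 5 genes nearest to each member. Further names were chosen after their values were seen. Members and lists were chosen with earlier results of these data known. The alternatives were other scalings, filters, blocks, array weights, a BH threshold of 0.05 and leaving out each pig, and, chosen after seeing the data, centring on the kept probes and each scan day alone. Array replicates are separate pigs.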

Additional observations from a re-analysis of the deposited data

How the results depend on the processing

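The 2 IL10 calls and the SOCS3 call for diet held under every scaling, filter, block and weighting tried with all pigs. Centring on the spike-in probes moved the median diet difference of all probes by 0.11 log2 and the share of called probes that were lower in HF from 63.4% to 15.4%. Under it 9 of the 14 probes were called for diet instead of 3, among them IL10RA at O10569 (0.18) and STAT3 at A_72_P232807 (0.14), and 1 for line. Quantile normalization, with and without normexp, and the 75th percentile of the processed signal brought the share lower in HF to 48.1%, 48.3% and 49.5%. With the mean of all probes of a gene, which takes in the dim probes, the diet differences were 0.28 for IL10 and 0.23 for SOCS3, with raw p of 0.0126 and 0.0127, and neither passed. On each scan day alone, with 24 pigs, 0 of the 14 probes were called for diet by limma in either day. At an unadjusted p under 0.05, A_72_P185331 passed on day 2, A_72_P367438 on day 1 and O12249 on both. For line, A_72_P441858 was called on day 1, A_72_P349223 on day 2 and A_72_P561986 on neither.

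The count of line calls was 1 instead of 2 under normexp with quantile normalization, with no filter and at a BH threshold of 0.05, each time through the loss of A_72_P561986. It was 3 under the 75th percentile of the processed signal, where STAT3 at A_72_P669204 (0.17, BH adjusted p = 0.0191, limma) was added. Leaving out 1 pig gave 1 to 4 diet calls, 1 without HF_RFIpl replicate 1, and 1 to 3 line calls. The line call of A_72_P561986 was lost without HF_RFIneg replicate 1, 2, 5, 6 or 12, HF_RFIpl replicate 1, 3, 4 or 9, LF_RFIneg replicate 1, 8, 10 or 12, or LF_RFIpl replicate 6, 9 or 11. Over all 48 such fits its difference was 0.13 to 0.16. Leaving out HF_RFIneg replicate 11 brought in IL10RB at A_72_P441858. Interaction calls remained at 0 in every fit. The ranges over the 48 fits were 0.36 to 0.46 for the diet difference of IL10, 0.05 to 0.11 for IL10RA, 0.0037 to 0.04 for IL10RB, 0.02 to 0.04 for STAT3 and 0.35 to 0.44 for SOCS3. For line they were -0.11 to -0.01, -0.05 to -0.00071, -0.08 to -0.04, 0.09 to 0.11 and -0.18 to -0.09.

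With the replicate number as a block, the diet difference of IL10 was 0.40 (BH adjusted p = 0.0204, limma) and 4 of the 14 probes were called for diet, O9277 being added, with 2 for line. The block changed no other call of the 14. O9277 was also called with the slide or the scan day as a block, with array weights, under normexp and with the 75th percentile of the processed signal. The numbers are not a pairing that the labels explain. Same-numbered pigs share a slide, the mean correlation of their deviations was 0.01 to 0.36 and passed 0.1 for 5 of 12 numbers, and 16 of 48 pigs correlated best with a pig of their own number.

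Among marker lists, called T cell genes went from 1 to 2 with the 75th percentile of the processed signal and to 4 with spike-in centring. NK cell genes went from 0 to 1 under all 4 other scalings. Spike-in centring also gave 3 endothelial, 1 fibroblast and 1 kidney and adrenal gene. Taking off slide means gave 2 related pairs of members instead of 1. The r was then 0.41 for IL10 with SOCS3 and 0.36 for IL10 with IL10RA at O10569. The dim probes A_72_P440601 and A_72_P185956 lie near background, which limits what they can show.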
